A study of Mus musculus with 14 samples.

Results

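The interferon response and antigen presentation genes described here were a named list of 39 genes, found by symbol among the 55414 genes of a raw count table of mouse granulosa cells (GCs). All 39 had exactly 1 row. They comprised 4 receptor genes, 5 sensors, adaptors and a kinase, 5 interferon regulatory factors, 19 interferon-induced effectors and modifiers, and 6 genes of antigen presentation by class I molecules of the major histocompatibility complex (MHC).

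RNA-seq had been performed on GCs released from punctured antral follicles of female mice kept on chow diet to 12 wk of age, with about 50 cells pooled per library. The groups were 4 libraries from db/db mice (strain B6.BKS(D)-Leprdb/J, which lack the long leptin receptor), 4 from their lean controls (CT db), 3 from ob/ob mice (strain B6.Cg-Lepob/J, which lack leptin) and 3 from their lean controls (CT ob). The sample labels gave the controls as wild type, whereas the column names of the table read as heterozygous, and this was not settled here. Libraries are named below by their group and the number in their column name, as in CT db 69. Both mutations act in the whole body, so GCs were compared between obese and lean animals and not between cells with and without leptin signalling alone. Nothing in the sources used here said that each library came from another mouse, so the p-values measure the spread between these libraries only.

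Interferons are secreted proteins that bind paired receptor chains and act through JAK kinases and STAT factors. Type I interferons (IFNAR1 and IFNAR2 chains) drive genes through the interferon-stimulated response element (ISRE), and interferon gamma (IFNGR1 and IFNGR2 chains) drives genes through the gamma-activated sequence (GAS). Sensors such as MDA5 (Ifih1), with its adaptor MAVS, and cGAS, with its adaptor STING, detect foreign or misplaced nucleic acids and turn on the same programme through the kinase TBK1 and the factors IRF3 and IRF7. Class I molecules, made of a heavy chain (H2-K1, H2-D1) and beta-2-microglobulin (B2m), carry peptides that the TAP transporter brings into the endoplasmic reticulum, and most nucleated cells have a basal level of them.

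The promoters of 3 class I genes, whose levels are described below, and of Isg15, the gene with the most ISRE core matches, are shown first. The sequences were RefSeq windows on GRCm38.p6, cut to the 250 bases before the start of the gene, and 33 of the 39 genes had one. Capitals mark matches, on either strand, to the ISRE core TTTCNNTT, to the full ISRE, which is this core followed by TC and so overlaps it, and to the class I enhancer A, an NF-kB type element of 10 letters that is the first run of capitals in H2-K1 and H2-D1. H2-K1 lay at chr17:34000348-34000597 on the minus strand, H2-D1 at chr17:35262844-35263093 on the plus strand, B2m at chr2:122147437-122147686 on the plus strand and Isg15 at chr4:156200819-156201068 on the minus strand.
H2-K1: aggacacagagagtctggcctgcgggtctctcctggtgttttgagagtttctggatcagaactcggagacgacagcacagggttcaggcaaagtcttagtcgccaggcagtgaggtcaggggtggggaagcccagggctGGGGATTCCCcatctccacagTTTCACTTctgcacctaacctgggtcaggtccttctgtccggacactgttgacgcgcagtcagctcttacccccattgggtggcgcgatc
H2-D1: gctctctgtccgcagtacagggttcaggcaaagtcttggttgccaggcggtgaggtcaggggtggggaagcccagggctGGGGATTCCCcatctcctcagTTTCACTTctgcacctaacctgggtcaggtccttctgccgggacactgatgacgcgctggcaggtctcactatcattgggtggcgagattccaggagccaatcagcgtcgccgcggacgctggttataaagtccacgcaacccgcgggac
B2m: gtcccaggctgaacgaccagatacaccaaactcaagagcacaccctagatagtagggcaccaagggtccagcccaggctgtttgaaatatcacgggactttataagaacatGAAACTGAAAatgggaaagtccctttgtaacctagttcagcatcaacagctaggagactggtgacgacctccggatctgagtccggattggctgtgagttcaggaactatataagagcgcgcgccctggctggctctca
Isg15: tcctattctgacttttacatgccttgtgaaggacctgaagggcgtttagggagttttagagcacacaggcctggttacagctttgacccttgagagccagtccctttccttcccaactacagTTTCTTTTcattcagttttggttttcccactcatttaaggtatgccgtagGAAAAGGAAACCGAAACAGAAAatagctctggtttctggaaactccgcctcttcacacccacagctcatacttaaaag

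The enhancer A letters were present in H2-K1 and H2-D1 and in no other of the 33 windows, against 0.0814% of all 27018 windows. In both genes the first base of the ISRE core lay 21 bases after the first base of the enhancer A letters. The full ISRE letters were found in 7 of the 33 windows (21.2%, against 3.04% of all windows), those of Isg15, Ifit1, Ifit3, Irf2, Bst2, Ifitm2 and B2m. The core was found in 10 of them (30.3%, against 21.6%), and the GAS letters TTCNNNGAA in 6 (18.2%, against 7.18%), those of Ifit2, Irf1, Irf2, Bst2, Eif2ak2 and Ifnar2. Isg15 held 4 core matches, the most among the 33. Rnf213, Ifngr1 and Ifngr2 held none of these letters in this window. A match describes the letters only.

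The depth differed between the groups. Per library, the db/db totals lay between 2204686 and 3059777 counts and the CT db totals between 3624237 and 4840714. The ob/ob libraries were the deepest, with 5306632 to 8367593 counts, and the CT ob libraries held 3664219 to 4847166. Levels below are CPM, the counts of a gene relative to the library total after scaling of the totals by TMM factors. A count of 3, taken as the detection limit, amounted to 0.941 to 1.26 CPM for db/db libraries and 0.649 to 0.867 CPM for their controls, and to 0.382 to 0.527 CPM for ob/ob libraries and 0.595 to 0.938 CPM for theirs. This limit covers counting error only, since the protocol had no molecular identifiers. In bulk libraries, fewer cells of a type and less RNA per cell cannot be told apart.

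The libraries were checked for granulosa cells and for other cell types of the follicle and ovary. All 10 granulosa markers were above the limit, and their summed level was 5790 to 16560 CPM, led in every library by Inha, the inhibin alpha subunit. The 16 leukocyte and macrophage markers summed to 3.36 to 32.1 CPM. Lyz2, a lysozyme of macrophages and neutrophils, was the most abundant of these in 10 of the 14 libraries. Ptprc, the pan-leukocyte antigen CD45, had 0 counts in 6 libraries and at most 10 counts, and S100a8, a neutrophil gene, had 0 counts in all 14. Theca markers summed to 924 CPM in db/db 24, against 92.2 to 431 CPM in the other 13 libraries. Oocyte markers summed to 1028 CPM in CT ob 60 and 650 CPM in ob/ob 106, against 2.60 to 253 CPM in the others, and were led by the oocyte factor Gdf9 in 13 libraries. Endothelial markers were higher in all CT ob libraries (21.0 to 41.4 CPM) than in all others (4.63 to 14.3 CPM). Stroma markers summed to 6.31 to 72.4 CPM.

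**Figure D1:**
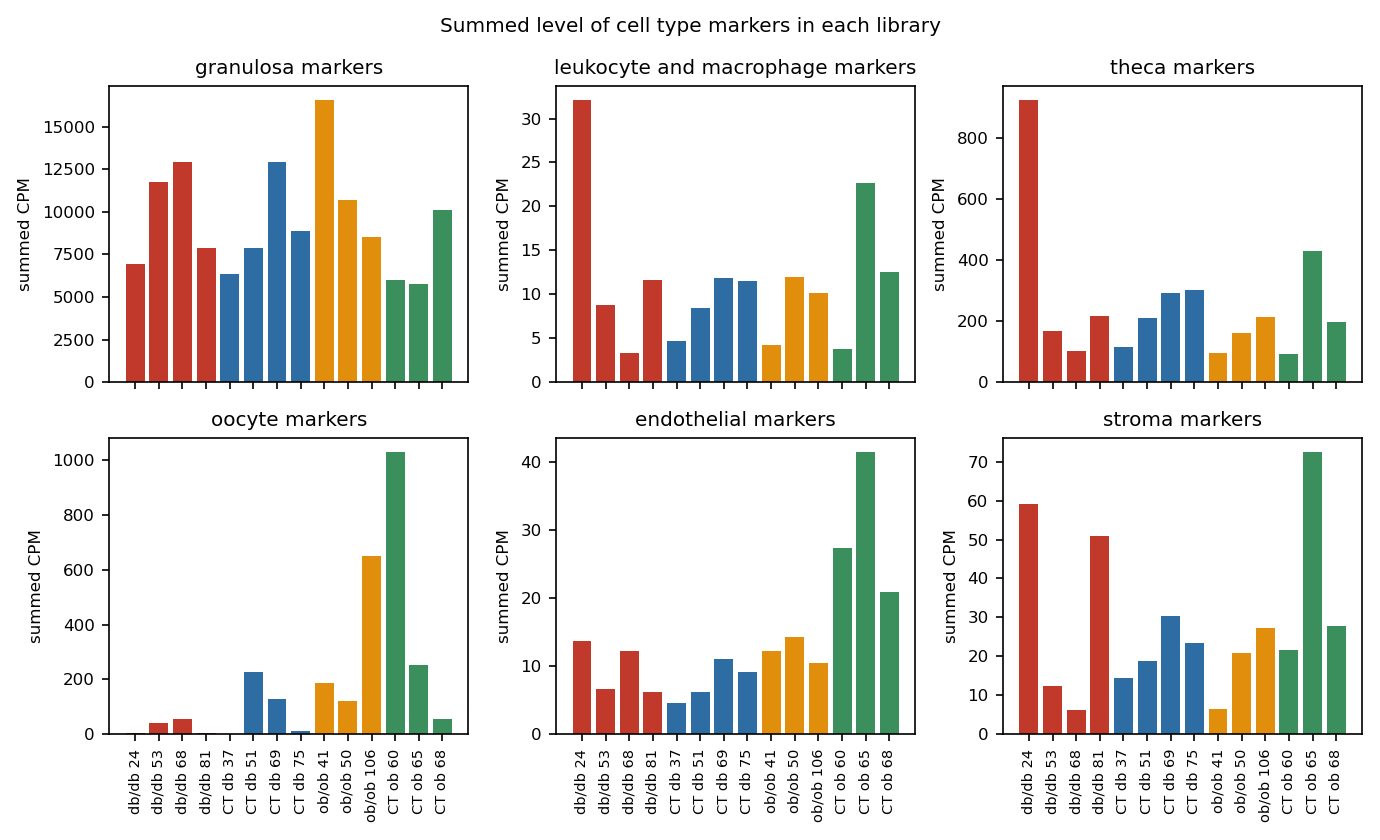
Summed CPM of the markers of 6 cell types (y axes, from 0) in each of the 14 libraries (x axis; bars coloured by group). Granulosa markers led in every library with 5790 to 16560 CPM, theca markers stood apart in db/db 24 and oocyte markers in CT ob 60 and ob/ob 106.

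The 6 antigen presentation genes and 4 receptor genes were above 3 counts in all 14 libraries, whereas several genes most typical of an active interferon response were at or near 0. Of the 39 genes, 30 were above 3 counts in all 14 libraries. Ifit1 and Ifit3, RNA-binding effectors that interferon induces strongly in most cells, were at 3 counts or fewer in every library, with highest counts of 2 and 3. Isg15, a ubiquitin-like protein that is attached to other proteins during an interferon response, exceeded the limit only in CT db 69, with 5 counts, and stood at 0 counts in 7 libraries. Sting1 was at the limit in every db/db library, with 0 to 3 counts, and had 0 to 10 counts in the controls of that model. In the ob model it had 0 to 23 counts in mutants and 5 to 18 in controls. Ifit2 (1 to 26 counts), Irf7 (3 to 19), Cgas (0 to 38), Usp18 (1 to 22), which removes ISG15, and Samd9l (2 to 77), a restriction factor, were above the limit in some libraries. In db/db, whose libraries were the shallowest, 4 genes were at the limit throughout, against 2 in CT db and 3 in each group of the ob model. With every library downsampled to the smallest total, 3 genes (Isg15, Ifit1 and Ifit3) were at the limit in all 14.

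Compared per kb of exon, as a mean over the 4 groups, B2m was the most abundant of the 39 genes with 139 CPM per kb. It was followed by Bst2 (tetherin, which holds budding viruses at the cell surface) with 101 CPM per kb, Ifitm2, a membrane protein that hinders virus entry, with 50.4, H2-D1 with 42.4 and H2-K1 with 41.3 CPM per kb. The receptor genes had 31.6 CPM per kb for Ifngr2, 15.7 for Ifngr1, 15.2 for Ifnar1 and 7.63 for Ifnar2. At the other end were Ifit1 with 0.0250 and Ifit3 with 0.0348 CPM per kb. H2-K1 and H2-D1 are close paralogs, as are Ifitm2 and Ifitm3 and the Ifit genes, and the handling of reads matching several genes was not stated, so the split of reads within these pairs is uncertain.

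**Figure D2:**
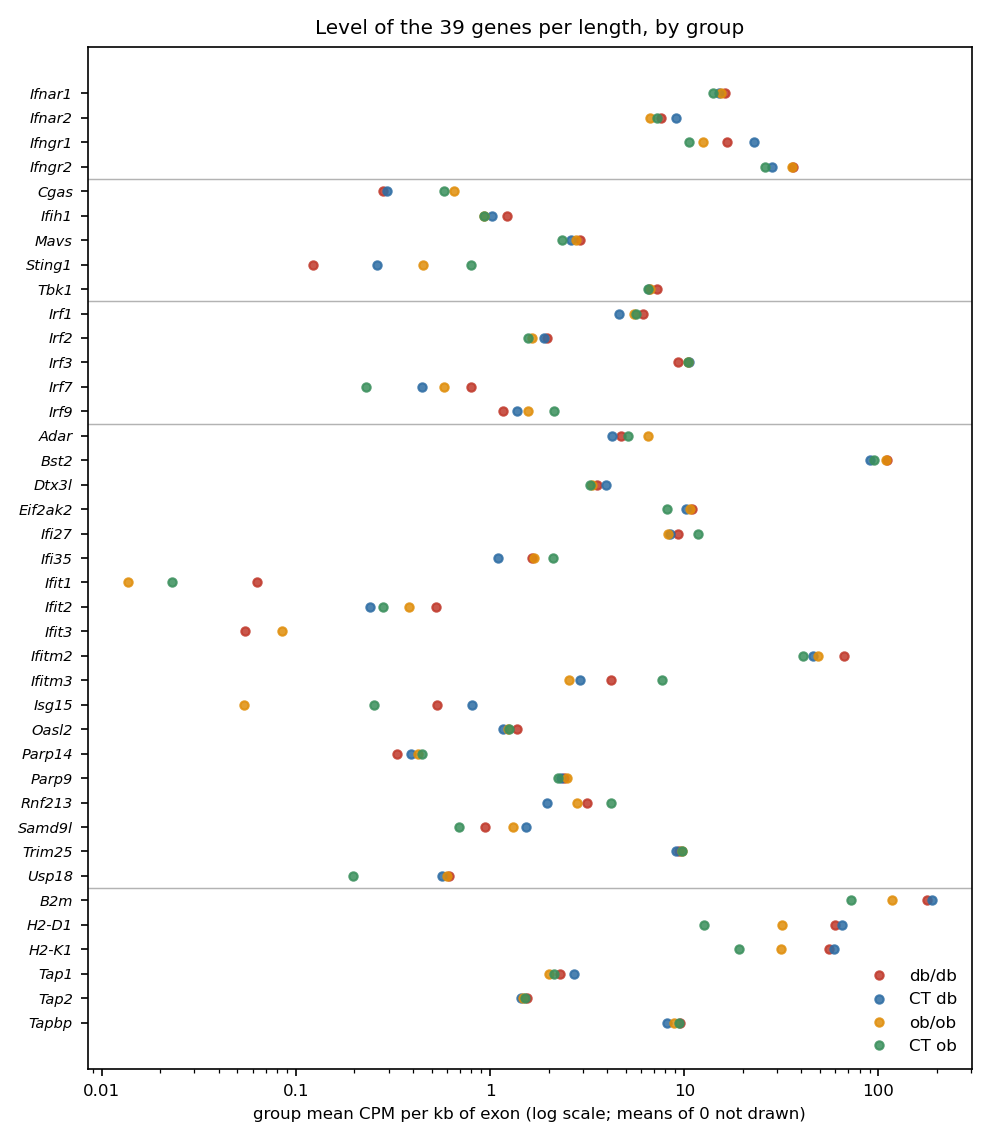
Group mean level of each of the 39 genes in CPM per kb of exon (x axis, log scale; means of 0 not drawn), with 1 point per group and lines between the functional classes. B2m and Bst2 are the 2 highest genes in each group, and Ifit1 and Ifit3 lie among the 3 lowest in each group or are at 0.

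The ligands and the signalling chain were examined with lists of other pathway genes. Of 13 interferon and interferon-induced cytokine genes, 7 had 0 counts in all libraries and 12 were at 3 counts or fewer throughout. The remaining gene was Cxcl9, a chemokine induced by interferon gamma, with 10 counts in CT ob 68. None of the 13 could be tested. Of 16 genes of receptor signalling and its negative regulators, 12 were above the limit in all libraries. Jak1, the kinase shared by both receptor types, had the highest CPM of them at 684 to 1555 CPM, while Stat2 was at 20.7 to 44.5 CPM. Of 58 further interferon-induced genes, 22 were above the limit in every library and 8 in no library. The core ISRE letters were present in 34 of the 45 of these with a RefSeq window (75.6%).

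For each model, mutants and controls were set against each other by edgeR's quasi-likelihood test, and a call required a p of at most 0.05 after Benjamini-Hochberg adjustment over all genes tested. In db/db against CT db, 31 of the 39 genes passed the filter on low counts and none was called by edgeR, as 0.00884% of the 11317 genes tested were. At an unadjusted p under 0.05, 5 of the 31 differed (4 higher, 1 lower in db/db), against 7.59% of all genes. DESeq2 called none of them and 0.389% of all genes. The median log2 difference of the 31 was 0.14, against 0.01 over all genes. The groups of libraries did not overlap for 1 of the 31, against 4.43% of all genes.

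That gene was Rnf213, a giant ubiquitin ligase that interferon induces and that acts on intracellular microbes and lipid droplets (chr11:119283926-119378244, plus strand, GRCm39). It had 62.1, 50.9, 62.2 and 37.0 CPM in db/db 24, 53, 68 and 81, and 34.4, 33.3, 29.1 and 34.9 CPM in CT db 37, 51, 69 and 75. No CT db library reached the lowest db/db library, db/db 81, which lay only just above them. The means were 53.1 ± 11.95 CPM (SD, n = 4) and 33.0 ± 2.64 CPM (SD, n = 4), a log2 difference of 0.73 ± 0.19 (SE), which did not pass (edgeR, adjusted p = 0.398). A gene on the opposite strand, A930037H05Rik, overlaps Rnf213, as Patl2 overlaps B2m, and without a stated strand setting their reads cannot be told apart.

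The interferon gamma receptor chains came next in order of p. Ifngr2, the signalling chain (chr16:91343906-91362512, plus strand, GRCm39), had 143, 174, 159 and 178 CPM in db/db 24, 53, 68 and 81, and 103, 136, 130 and 143 CPM in CT db 37, 51, 69 and 75. The groups overlapped only at db/db 24 and CT db 75, which were nearly equal. Its log2 difference was 0.39 ± 0.14 (SE; edgeR, adjusted p = 0.567). Ifngr1, the ligand-binding chain (chr10:19467697-19485977, plus strand, GRCm39), had 53.4, 38.4, 53.8 and 44.5 CPM in these db/db libraries and 53.5, 67.1, 61.0 and 79.0 CPM in these CT db libraries. The lowest CT db library lay within the range of db/db and the other CT db libraries above it. Its log2 difference was -0.41 ± 0.17 (SE; edgeR, adjusted p = 0.621).

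Among the other genes of this comparison, Irf1, a factor induced by interferon gamma, had a log2 difference of 0.45 (edgeR, adjusted p = 0.641) and Ifitm2 one of 0.57 (edgeR, adjusted p = 0.641). The log2 differences of the 6 antigen presentation genes lay between -0.19 and 0.26, those of the 3 tested sensors and adaptors between 0.19 and 0.30, and those of the 4 tested interferon regulatory factors between -0.18 and 0.45. Of the 14 tested effectors, 11 were above 0 and 3 below, from -0.66 for Samd9l to 0.73 for Rnf213.

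In ob/ob against CT ob, 34 of the 39 genes were tested and none was called by edgeR, as 0% of the 12425 genes tested were. At an unadjusted p under 0.05, 4 of the 34 differed (2 higher, 2 lower in ob/ob), against 8.16% of all genes. DESeq2 called 1, H2-D1, with an adjusted p of 0.0288, against 0.752% of all genes. The median log2 difference of the 34 was 0.01, against -0.04 over all genes. The groups of libraries did not overlap for 3 of them (H2-D1 and B2m higher, Rnf213 lower in ob/ob), against 15.1% of all genes. Irf7 (1.27 to 2.65 against 0.595 to 1.25 CPM) and Usp18 (1.23 to 3.07 against 0.313 to 1.02 CPM) were also apart, both higher in ob/ob, but their counts were too low for the filter and they were not tested.

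H2-D1 (chr17:35481691-35486475, plus strand, GRCm39) had 127, 62.6 and 96.9 CPM in ob/ob 41, 50 and 106, and 31.3, 37.1 and 45.0 CPM in CT ob 60, 65 and 68. All ob/ob libraries were above all CT ob libraries. The means were 95.5 ± 32.3 CPM (SD, n = 3) and 37.8 ± 6.90 CPM (SD, n = 3), a log2 difference of 1.29 ± 0.31 (SE; edgeR, adjusted p = 0.539). B2m, the shared light chain (chr2:121977957-121983594, plus strand, GRCm39), had 320, 224 and 197 CPM in the ob/ob libraries and 155, 186 and 118 CPM in the CT ob libraries. Here too the groups were apart, by 197 against 186 CPM at the closest, and the log2 difference was 0.65 ± 0.24 (SE; edgeR, adjusted p = 0.574). H2-K1, named here after its values were seen, had a log2 difference of 0.64 ± 0.41 (SE; edgeR, adjusted p = 0.707) with overlapping groups. The TAP subunits and the TAP-binding protein did not share this direction, with log2 differences of -0.16 for Tap1, -0.09 for Tap2 and -0.12 for Tapbp.

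Rnf213 had 44.2, 51.5 and 44.9 CPM in ob/ob 41, 50 and 106, and 82.8, 53.1 and 74.1 CPM in CT ob 60, 65 and 68. All ob/ob libraries were below all CT ob libraries, the opposite order to that of the db model, with CT ob 65 close to ob/ob 50. The log2 difference was -0.63 ± 0.22 (SE; edgeR, adjusted p = 0.563). Ifitm3 (chr7:140589499-140591282, minus strand, GRCm39), a paralog of Ifitm2, had 2.09, 4.59 and 3.16 CPM in the ob/ob libraries and 3.77, 13.7 and 12.2 CPM in the CT ob libraries. CT ob 60 lay among the ob/ob libraries while the other 2 were above all of them, and the counts behind these values were 15 to 54. The log2 difference was -1.64 ± 0.58 (SE; edgeR, adjusted p = 0.566). Ifngr2 had 199, 135 and 151 CPM against 143, 105 and 105 CPM, with overlapping groups (log2 difference 0.42 ± 0.22 SE; edgeR, adjusted p = 0.656). Ifngr1 had 41.3, 34.7 and 30.9 CPM against 29.5, 35.3 and 25.7 CPM, also overlapping (log2 difference 0.20 ± 0.22 SE; edgeR, adjusted p = 0.823). Endothelial markers were also lower in all ob/ob libraries (10.5 to 14.3 CPM) than in all CT ob libraries (21.0 to 41.4 CPM). Their part in the differences between ob/ob and CT ob was not tested.

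**Figure D3:**
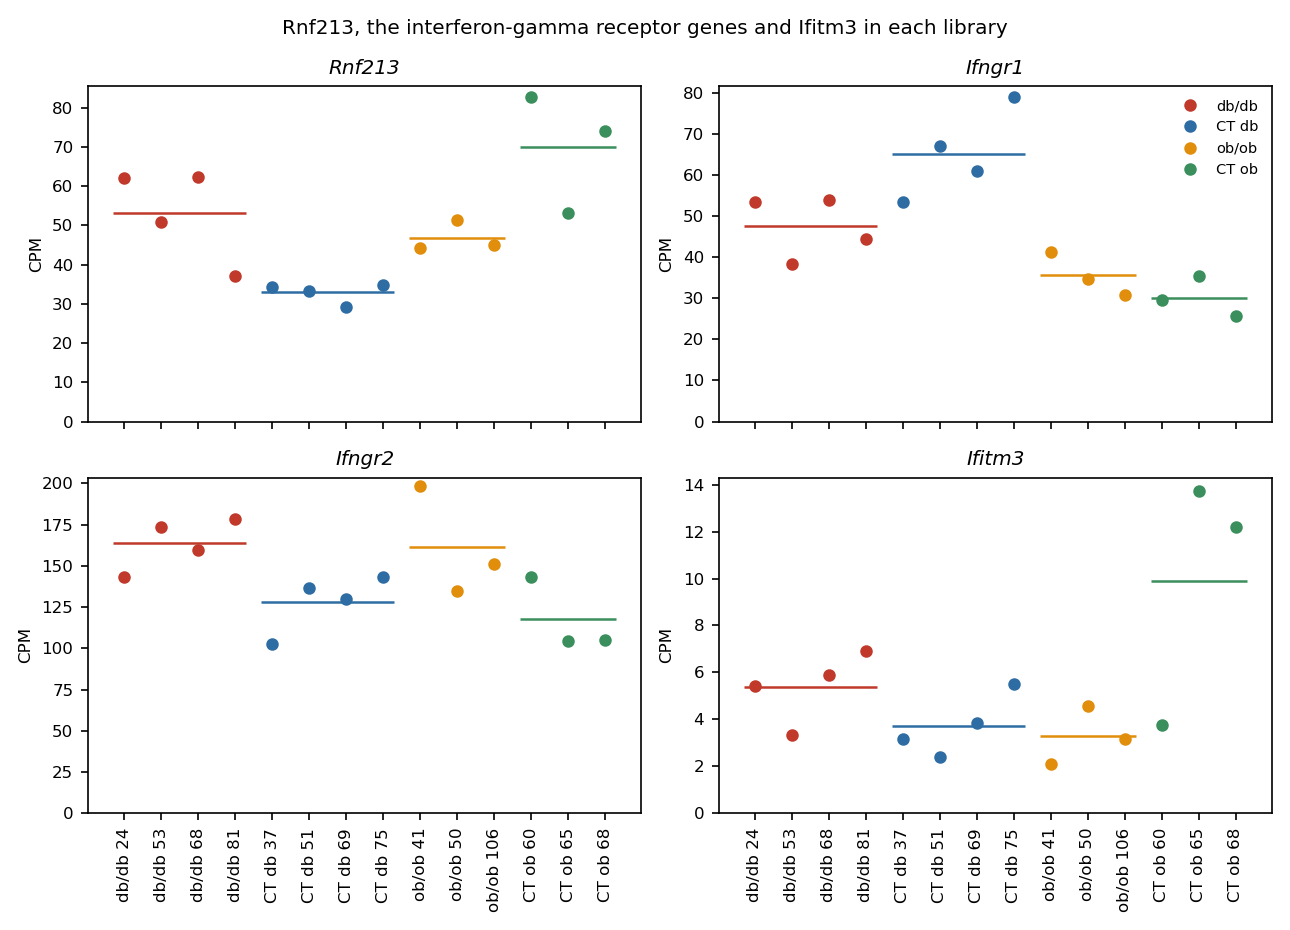
CPM of Rnf213, Ifngr1, Ifngr2 and Ifitm3 (y axes, from 0) in each library (points; x axis, coloured by group), with lines at the group means. Rnf213 was higher in db/db than in CT db and lower in ob/ob than in CT ob without overlap, and Ifngr1 had its highest group mean in CT db.

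The mutant effects of the 2 models were compared directly as an interaction in 1 fit of all 14 libraries, with 35 of the 39 genes tested. None of the 35 was called by edgeR, as 0% of the 12586 genes tested were, and 4 had an unadjusted p under 0.05 (1 higher, 3 lower), against 8.11% of all genes. DESeq2 called 1, Rnf213, with an adjusted p of 0.0057, against 1.07% of the genes to which it gave an adjusted p; 17 of the 35 were given none. For Rnf213 the effect in the ob model minus that in the db model was -1.36 ± 0.28 (log2, SE; edgeR, unadjusted p = 0.000231, adjusted p = 0.189). For Ifitm3 it was -2.22 ± 0.68 (SE; edgeR, adjusted p = 0.419), for Ifngr1 0.61 ± 0.26 (SE; edgeR, adjusted p = 0.571) and for Ifi27, an interferon-induced membrane protein, -0.76 ± 0.33 (SE; edgeR, adjusted p = 0.585). For H2-D1 it was 1.38 ± 0.94 (SE; edgeR, adjusted p = 0.696).

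By edgeR, the calls of the list all lay between the lean controls of the 2 models, among the 5 comparisons made. In CT ob against CT db, 3 of the 35 genes tested were called (1 higher, 2 lower in CT ob), against 6.63% of the 12586 genes tested. DESeq2 called 5 (Rnf213 and Ifitm3 higher, B2m, H2-D1 and Ifngr1 lower), against 12.4% of all genes. At an unadjusted p under 0.05, 7 differed (3 higher, 4 lower), against 26.9% of all genes. The groups did not overlap for 3 of the 35 (Rnf213 higher, Ifngr1 and Samd9l lower in CT ob), against 20.2% of all genes. The share of the list was therefore near or below that of all genes under each of these rules. Usp18 was also apart and lower in CT ob (0.313 to 1.02 against 1.515 to 2.476 CPM), but it did not pass the filter and was not tested. The CT db libraries also serve the comparison with db/db and the CT ob libraries that with ob/ob, so a value in a control group enters both. Strain, colony and model cannot be told apart in this comparison. Endothelial markers did not overlap between the 2 control groups, and oocyte markers were at 56.3 to 1028 CPM in CT ob against 2.60 to 226 CPM in CT db. Their part in the result was not tested.

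Ifngr1 was lower in CT ob, with 29.5, 35.3 and 25.7 CPM in CT ob 60, 65 and 68 against 53.5 to 79.0 CPM in CT db. No library of one group reached the other. The log2 difference was -1.08 ± 0.19 (SE; edgeR, adjusted p = 0.00986), a fold of 0.473. Its mean level followed the order CT db (65.1 CPM), db/db (47.5 CPM), ob/ob (35.6 CPM) and CT ob (30.2 CPM). The ranges of neighbours in this order overlapped. Rnf213 was higher in CT ob (53.1 to 82.8 CPM) than in CT db (29.1 to 34.9 CPM), again without overlap, with a log2 difference of 1.13 ± 0.20 (SE; edgeR, adjusted p = 0.0101), a fold of 2.19. The calls of Ifngr1 and Rnf213 held without any 1 of the 7 libraries. Both had an adjusted p of 0.0543 in a fit of the 2 control groups alone, in which 0 of the 32 genes tested and 3 of all 11876 genes were called.

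B2m was lower in CT ob, with a log2 difference of -1.35 ± 0.38 (SE; edgeR, adjusted p = 0.0461), although the groups overlapped. It had 179, 229, 623 and 555 CPM in CT db 37, 51, 69 and 75, and 155, 186 and 118 CPM in CT ob 60, 65 and 68. CT db 37 lay within the range of CT ob and the other CT db libraries above it. The call was lost without any 1 of CT db 51, 69 and 75 and CT ob 60, 65 and 68, with adjusted p-values up to 0.146. H2-D1, with 30.1, 53.5, 389 and 308 CPM in the CT db libraries, had a log2 difference of -2.34 ± 0.72 (SE; edgeR, adjusted p = 0.0609). It was called by DESeq2 (adjusted p = 0.0238) and by edgeR without CT db 37 (adjusted p = 0.0161) or without the filter on low counts. For H2-K1 it was -1.57 ± 0.66 (SE; edgeR, adjusted p = 0.146). Ifitm3 had 3.18, 2.38, 3.85 and 5.50 CPM in the CT db libraries and a log2 difference of 1.45 ± 0.47 (SE; edgeR, adjusted p = 0.0716). It was called without CT ob 60, with an adjusted p of 0.0371.

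Among the 71 other pathway genes tested in this comparison, 2 were called (2.82%), both higher in CT ob, a smaller share than the 6.63% of all genes. Psmb10, a subunit of the immunoproteasome, which cuts peptides for class I molecules, had a log2 difference of 1.16 ± 0.27 (SE; edgeR, adjusted p = 0.0253), and Pml, the scaffold of PML nuclear bodies, one of 0.73 ± 0.19 (SE; edgeR, adjusted p = 0.0396). They were 1 of 17 antigen presentation genes and 1 of 30 interferon-induced genes, and none of 13 signalling genes and none of 11 sensing genes was called. Jak1 had a log2 difference of -0.70 (edgeR, adjusted p = 0.0552), Rnaseh2c one of 0.84 (adjusted p = 0.0572) and Ptpn2, a phosphatase that restrains JAK signalling, one of -0.93 (adjusted p = 0.0589). DESeq2 called these 3 as well as Psmb10, Pml and Calr, a chaperone of class I assembly (log2 difference 0.56, DESeq2, adjusted p = 0.0422), in all 6 of 71 (8.45%), against 12.4% of all genes. In both comparisons of mutants with their controls none of these other genes was called by edgeR. With DESeq2, Pdia3, a chaperone of class I assembly, was lower in db/db (log2 difference -0.61, adjusted p = 0.0447), 1 of the 60 tested (1.67%), against 0.389% of all genes.

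In ob/ob against db/db, none of the 35 genes was called by edgeR, against 0.0159% of all genes, nor by DESeq2, against 0.573%. At an unadjusted p under 0.05, 1 differed, against 8.18% of all genes. This was Ifngr1, with a log2 difference of -0.47 ± 0.18 (SE; edgeR, adjusted p = 0.468). No gene of the list had groups apart here, against 10.2% of all genes. The log2 difference was below 0 for 27 of the 35, with a median of -0.16, against -0.01 over all genes.

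**Figure D4:**
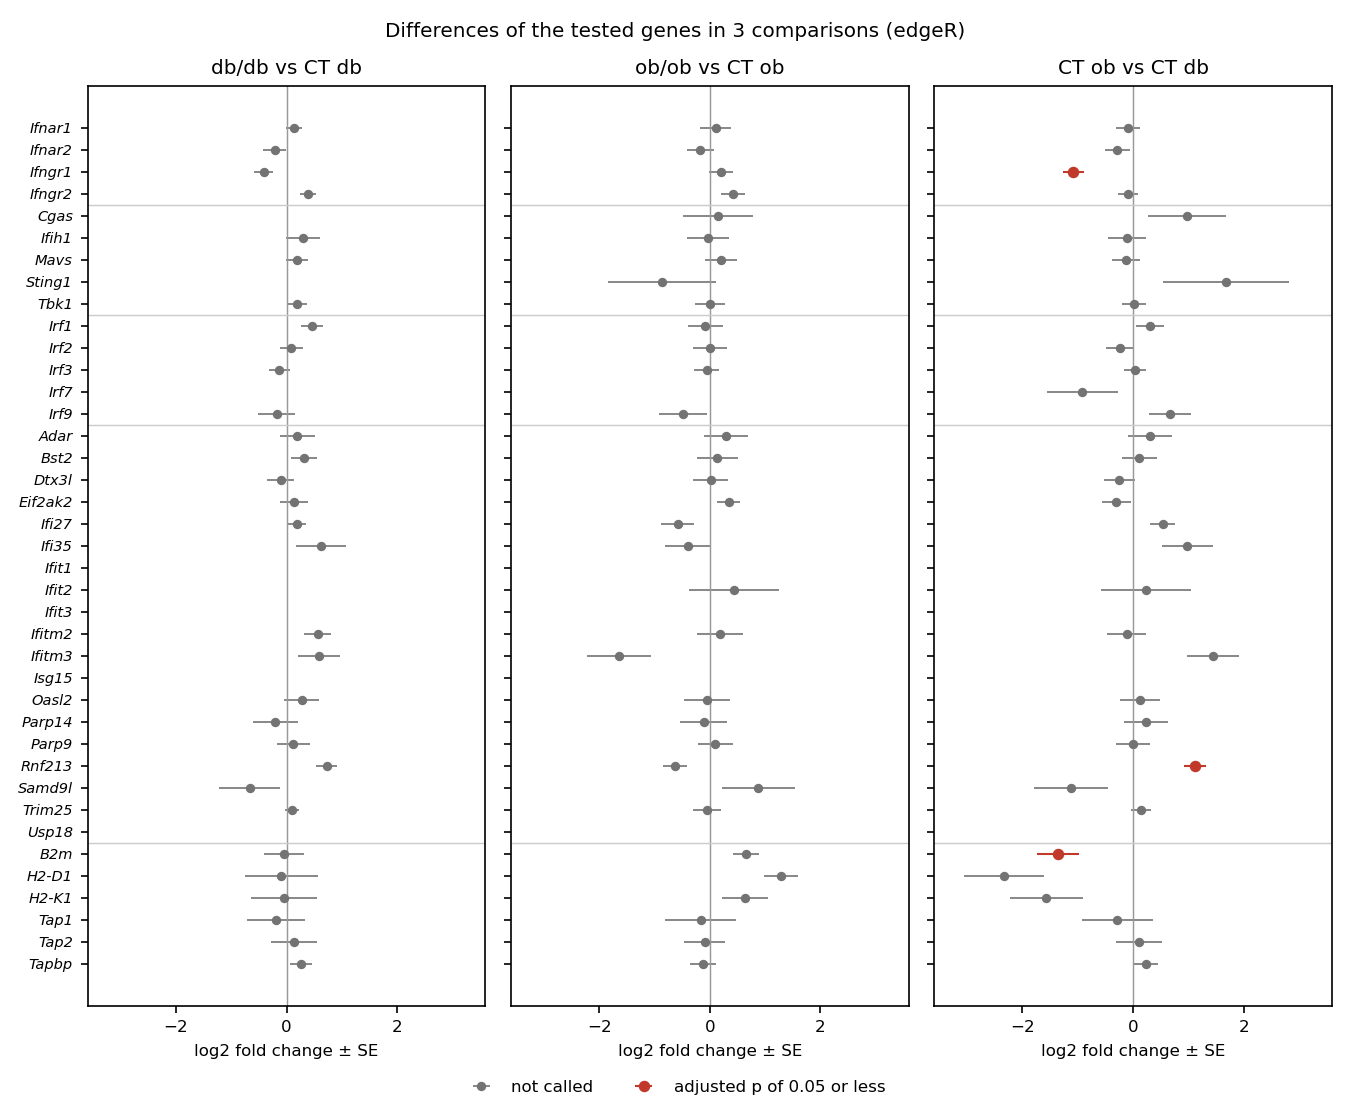
Log2 fold changes with SE (x axis) of the genes that passed the filter, in functional order from the receptors at the top to antigen presentation at the bottom, for db/db against CT db, ob/ob against CT ob and CT ob against CT db. Red points mark the called genes Ifngr1, Rnf213 and B2m in the panel of the controls, and no gene was called in the other panels.

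Within CT db, the antigen presentation genes other than Tapbp differed more between libraries than most genes did. H2-D1 ranged 12.9-fold between the lowest and the highest CT db library, and only 0.0571% of the 10500 genes with at least 10 counts in each of these libraries ranged further. H2-K1 ranged 8.48-fold (0.238% of genes further), Tap1 6.05-fold (0.667%), Tap2 3.64-fold (2.94%) and B2m 3.48-fold (3.31%), where the median gene ranged 1.51-fold. Rnf213 and Ifngr1 were not of this kind in CT db, with 1.2-fold and 1.48-fold. In db/db, H2-D1 ranged 3.25-fold, H2-K1 2.67-fold and Tap1 2.77-fold, while B2m (1.68-fold) and Tap2 (1.58-fold) lay nearer the median gene (1.49-fold). In ob/ob, Tap1 ranged 2.42-fold, H2-D1 2.03-fold, H2-K1 1.635-fold, B2m 1.62-fold and Tap2 1.2-fold, and the median gene 1.435-fold. In CT ob, Tap1 ranged 4.99-fold and H2-K1 2.71-fold (9.88% of genes further), while H2-D1 (1.44-fold) and B2m (1.57-fold) were no wider than the median gene (1.58-fold).

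In db/db, CT db and ob/ob, the same libraries were high for the class I genes. H2-K1 had 115, 150, 138 and 306 CPM in db/db 24, 53, 68 and 81, 44.8, 51.3, 380 and 275 CPM in CT db 37, 51, 69 and 75, 134, 84.6 and 82.0 CPM in ob/ob 41, 50 and 106, and 36.1, 49.3 and 97.9 CPM in CT ob 60, 65 and 68. CT db 69 was the highest of the 14 libraries for B2m, H2-K1, H2-D1, Tap1 and Tap2. CT db 75 and db/db 81 followed it for B2m, H2-K1 and H2-D1, and CT db 37 lay among the lowest 3 for these. B2m in the db/db libraries was 304, 377, 317 and 509 CPM, again highest in db/db 81. H2-D1 in them was 98.8, 150, 147 and 321 CPM. In CT ob this agreement was absent, since CT ob 68 was the highest of its group for H2-K1, H2-D1, Tap1 and Tap2 but the lowest of all 14 libraries for B2m. Tapbp, which links TAP to the class I heavy chain, shared the order of the class I genes only in part. It had 30.07, 30.95, 38.2 and 45.1 CPM in CT db 37, 51, 69 and 75, so CT db 69 and 75 were again above CT db 37 and 51. CT db 37 was the lowest of the 14 libraries for Tapbp, but the highest was db/db 53 with 50.9 CPM.

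**Figure D5:**
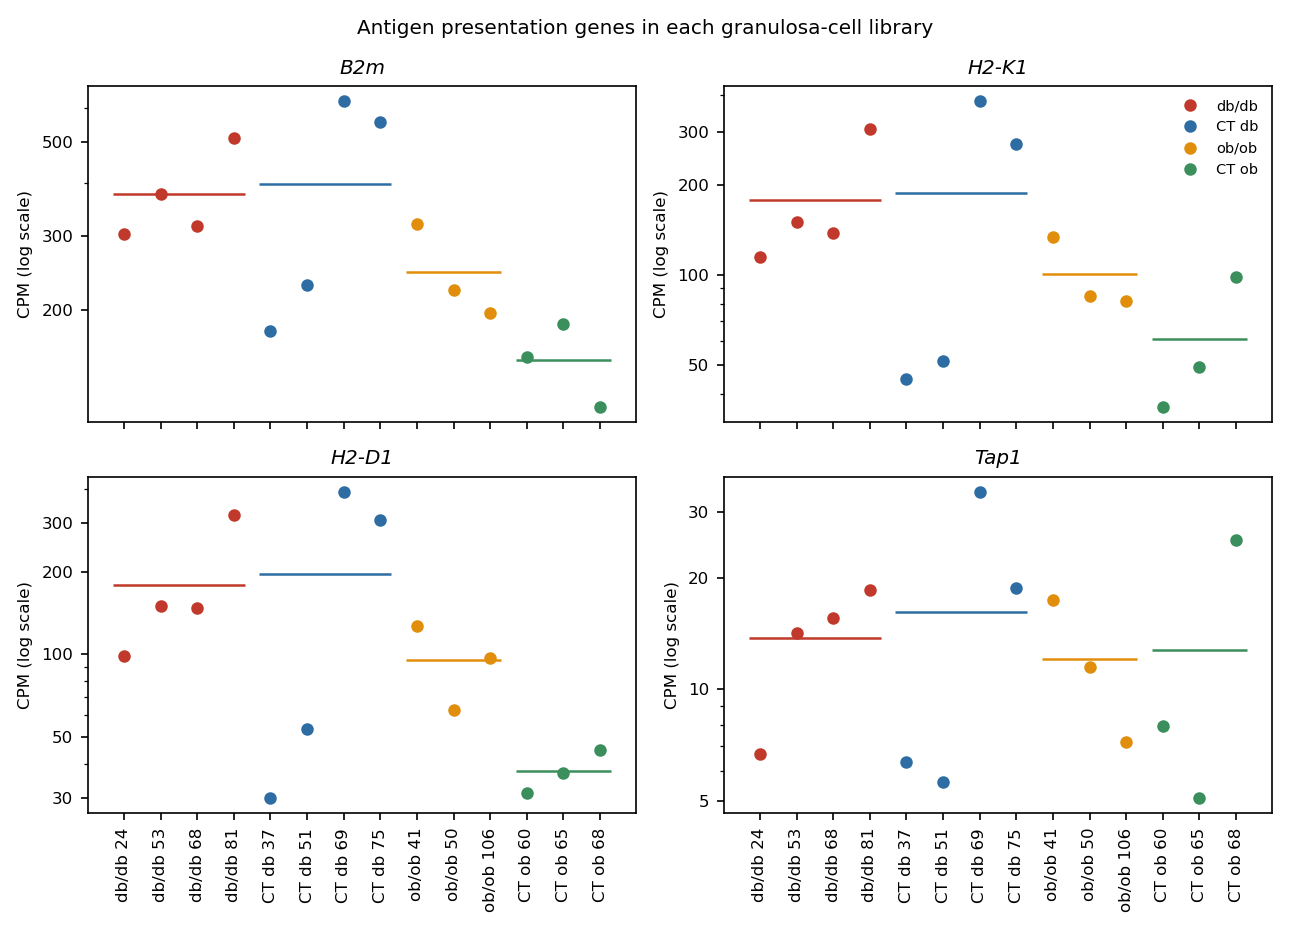
CPM of B2m, H2-K1, H2-D1 and Tap1 (y axes, log scale) in each library (points; x axis, coloured by group), with lines at the group means. Within CT db, libraries 69 and 75 lie above libraries 37 and 51 for all 4 genes, and db/db 81 is the highest db/db library for each.

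CT db 69 and 75 were next set against CT db 37 and 51, a choice made from their class I levels, so the counts that follow are descriptions with no test. Of 24 further antigen presentation genes, 15 were higher in both CT db 69 and 75 than in both others and 3 (Calr, Canx and Pdia3) were lower, against 16.8% and 19.2% of the 10500 genes with at least 10 counts in each. The 24 were not filtered on counts, so these shares are not on the same footing. Ciita, counted as higher, had 0, 0, 0.275 and 0.275 CPM in CT db 37, 51, 69 and 75. Of the 15 of the list that were above 3 counts in all 14 libraries, 8 were higher, among them H2-T22, H2-T23, H2-M3, Psmb8 and Psme2. The H2-Q, H2-T and H2-M genes among those higher are related to H2-K1 and H2-D1. Since the handling of reads matching several genes was not stated, they may not be separate observations. The values of 8 genes, chosen after they were seen, are given here. Nlrc5, the transactivator of class I genes, had 7.81, 9.31, 21.7 and 18.4 CPM in CT db 37, 51, 69 and 75, 12.9, 28.8, 25.7 and 32.0 CPM in db/db 24, 53, 68 and 81, 42.7, 12.7 and 14.9 CPM in ob/ob 41, 50 and 106, and 6.74, 4.07 and 18.5 CPM in CT ob 60, 65 and 68. Its highest library was thus ob/ob 41, which was also the highest ob/ob library for B2m, H2-K1, H2-D1 and Tap1. H2-Q4, a class Ib heavy chain, had 0.578 and 0 CPM in CT db 37 and 51 and 7.69 and 7.15 CPM in CT db 69 and 75. Psmb9, another immunoproteasome subunit, had 6.07, 3.46, 21.2 and 13.8 CPM in the same order. It overlaps Tap1 on the opposite strand, and without a stated strand setting their reads cannot be told apart. Calr was lower in CT db 69 and 75 (403 and 368 CPM) than in CT db 37 and 51 (548 and 478 CPM). Pdia3 likewise had 2609 and 2770 CPM in CT db 37 and 51 and 2038 and 2235 CPM in CT db 69 and 75. Erap1, which trims peptides for class I molecules, was similar in all of them, with 124, 139, 121 and 127 CPM. Of the class II genes, Ciita, Cd74, H2-Aa and H2-Eb1 were among the 15 of 24 genes higher in both CT db 69 and 75. H2-Ab1, H2-DMa and H2-DMb1 were not. The chaperone Cd74 had 1.16, 0.649, 5.22 and 2.75 CPM in CT db 37, 51, 69 and 75. Over all 14 libraries, the transactivator Ciita was at 0 to 1.59 CPM and Cd74 at 0 to 7.11 CPM.

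Leukocyte markers summed to 4.63, 8.44, 11.8 and 11.6 CPM in CT db 37, 51, 69 and 75, and to 32.1, 8.77, 3.36 and 11.6 CPM in db/db 24, 53, 68 and 81. Ptprc had 0, 0, 6 and 1 counts in these CT db libraries. Theca markers summed to 116, 209, 291 and 302 CPM, stroma markers to 14.5, 18.8, 30.5 and 23.4 CPM and endothelial markers to 4.63, 6.28, 10.99 and 9.08 CPM in them, so these sums, like that of the leukocyte markers, were higher in CT db 69 and 75 than in CT db 37 and 51. Oocyte markers, with 2.60, 226, 129 and 13.8 CPM, were not. The db/db library with the most leukocyte markers, db/db 24, was the lowest of its group for B2m, H2-K1 and H2-D1. The summed granulosa markers were 6368, 7890, 12920 and 8890 CPM in the CT db libraries, again higher in CT db 69 and 75, as were 7 of the 10 markers taken singly (Fshr, Cyp19a1, Inha, Inhba, Inhbb, Hsd17b1 and Fst), while Amh was lower in both. Among them Inhba, the inhibin beta A subunit, which rises in large antral follicles, had 79.8, 170 and 2547 CPM in CT db 37, 51 and 69 and 756 CPM in CT db 75. Amh, a hormone of growing follicles, had 512, 260, 104 and 82.8 CPM in the order of CT db 37, 51, 69 and 75, while Foxl2 (105, 54.5, 81.3 and 69.3 CPM) and Nr5a2 (181, 376, 211 and 238 CPM) showed neither order. In db/db 24, 53, 68 and 81, Inhba had 214, 729, 1990 and 203 CPM, and Amh had 188, 38.8, 111 and 40.8 CPM. The part of cell makeup or follicle stage in the class I levels was not tested.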

How the data were processed

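The authors deposited raw counts per gene without normalization. Per the study's methods, reads of 75 bp were trimmed with cutadapt, mapped to GRCm39 with STAR and counted with featureCounts, whereas the submitters' processing notes name Trim Galore 0.6.2, HISAT2 2.1.0 and GRCm38, and this was not settled. Strand and multi-mapping settings were not given in the sources used here. Symbols, positions and exon lengths were taken by Ensembl identifier from a GRCm39 annotation, which matched 54749 of 55414 identifiers. edgeR 4.0.16 (R 4.3.3) gave TMM normalization and quasi-likelihood tests after filterByExpr (minimum count 10, minimum total 15), with Benjamini-Hochberg adjustment over all genes tested. The db and ob models were fitted on their own, and comparisons between models in 1 fit of 14 libraries. DESeq2 1.42.0 was an alternative, and the tests were checked on simulated data. Values in every library are given for genes called in any comparison, for the 3 with the smallest p in each model and between controls, and for any with groups apart in both models, and of the other lists up to 5 genes per comparison. The members, lists and rule were chosen with earlier results of these data known.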

Additional observations from a re-analysis of the deposited data

Results flagged for a closer look

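Rnf213 had opposite differences in the 2 models, with the db/db libraries all above those of CT db and the ob/ob libraries all below those of CT ob. The difference of the mutant effects was -1.36 on the log2 scale, and its own test did not pass (edgeR, unadjusted p = 0.000231, adjusted p = 0.189). DESeq2 gave an adjusted p of 0.0057, and over the alternatives the adjusted p ranged from 0.0057 to 0.49.

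Of 61 groups of 4 libraries examined, 1 library stood far from the other 3 in 2 cases, and chance flags about 1 in 20 such groups. Samd9l had 16.7 CPM in CT db 51, against 6.07 to 6.87 CPM in the other CT db libraries. Trim25, a ubiquitin ligase that acts with the RNA sensor RIG-I, had 48.3 CPM in db/db 81, against 55.0 to 56.4 CPM in the other db/db libraries.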

How the results depend on the processing

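The number of genes of the list called was 0 in db/db against CT db under all alternatives. Without the filter on low counts, 1 was called in ob/ob against CT ob (H2-D1; 359 of all 32006 genes), 5 in CT ob against CT db (Rnf213, B2m, H2-K1, H2-D1 and Ifngr1; 1727 of 34753), 2 in ob/ob against db/db (535 of 34753) and 2 in the interaction (329 of 34753), and with DESeq2 the numbers were 1 in ob/ob against CT ob, 5 in CT ob against CT db and 1 in the interaction. A fit of the control groups alone called 0, and 3 of all 11876 genes. Leaving out 1 library at a time gave 2 to 4 in CT ob against CT db and 0 in the other 4 comparisons. Without db/db 24 and CT ob 60, the libraries with the most theca and oocyte markers (chosen after seeing the data), 3 were called between the controls, with Ifitm3 in place of B2m. At a limit of 0 counts, 0 genes were at the limit in all 14 libraries, in place of 2. Differences near 0 changed sign in 16 cases. In db/db against CT db, B2m ranged from -0.29 to 0.26 and H2-D1 from -0.52 to 0.48 on the log2 scale when 1 library was left out, B2m was 0.029 with library size only, and without db/db 24 and CT ob 60 they were 0.046 and 0.104. When 1 library was left out, Ifngr2 ranged from -0.26 to 0.049 in ob/ob against db/db and from -0.17 to 0.15 in the interaction. The cause of these changes was not tested. With library size only, 2 genes of the list were called between the controls, since B2m was lost (edgeR, adjusted p = 0.0767), and 261 of all genes in place of 834. Neither RLE nor library size only moved the median log2 difference of all genes by 0.1. No paired analysis was possible because the columns of the table carry none of the replicate numbers of the labels. At this depth no difference was detectable for Ifit1, Ifit3 and Isg15, nor for Sting1 between db/db and CT db.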

Other observations

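Oas1c and Parp12, from the list of further interferon-induced genes and named here after their values were seen, were highest in the 2 libraries with the most oocyte markers. Oas1c, an oligoadenylate synthetase family member, was at 49.1 CPM (ob/ob 106) and 48.35 CPM (CT ob 60), against 0.825 to 13.97 CPM in the other 12 libraries. Parp12, an interferon-induced ADP-ribosyltransferase, was at 69.5 CPM (ob/ob 106) and 99.9 CPM (CT ob 60), against 15.01 to 37.4 CPM in the others. The part of oocyte RNA in these values was not tested.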
